A study of Mus musculus with 60 samples.

Results

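Bulk RNA of the medial prefrontal cortex (mPFC) was compared between the SA and ANH groups of DBA2/J mice. All carry GFP-L10a, which joins green fluorescent protein to a protein of the large ribosomal subunit. The comparison took the 12 Input libraries labelled SA_Input_1 to SA_Input_6 and ANH_Input_1 to ANH_Input_6, out of 60 libraries in the series, and the 18170 of 55414 listed genes that passed a filter on low counts. Input is tissue RNA taken without an antibody, and the IP libraries hold RNA pulled down with tagged ribosomes by an antibody against GFP. SA and ANH are 2 of 5 groups, the others being SA:ANH, RES and NS, with 6 Input libraries each. The series describes social defeat over 5 days in this strain, but its labels neither spell out the group names nor say which groups were defeated. The labels state no promoter for the tag, no age or sex, and no link between libraries and animals, so a p-value here speaks only of how far the libraries spread.

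The mPFC is a mixture of excitatory and inhibitory neurons, astrocytes, oligodendrocytes, microglia and vessel cells. Oligodendrocytes wrap axons in myelin, a membrane rich in cholesterol and galactolipid whose layers are held together by proteins such as myelin basic protein. Neurons that fire switch on immediate early genes within minutes, partly through the transcription factor CREB, which binds a cAMP response element in their promoters. In bulk tissue, fewer cells of a type and less RNA per cell cannot be told apart.

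Total counts were 21805107 to 27073413 in SA and 22254586 to 26571670 in ANH. Among 2195 genes with a mean of at least 100.0 CPM (counts relative to the TMM-scaled total of the library), the coefficient of variation between libraries had a median of 4.82% in SA and 4.65% in ANH. Markers of the labelled tissue were present: summed over each list, excitatory neuron markers reached 6194 to 6650 CPM in SA and 5933 to 6314 CPM in ANH, inhibitory neuron markers 2762 to 2876 CPM in SA and 2714 to 2807 CPM in ANH and astrocyte markers 9851 to 10340 CPM in SA and 10010 to 10240 CPM in ANH. Globin and other red cell transcripts, a sign of blood left in the tissue, summed to 2324 to 2448 CPM in SA and 2335 to 2401 CPM in ANH over 7 genes. Mitochondrial transcripts took 1.57% to 2.12% of counts in SA and 1.54% to 2.10% in ANH.

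SA differed from ANH mainly in small steps. A rise or a fall here means higher or lower in SA than in ANH, not a change from a baseline. Of 18170 genes tested, 552 were higher in SA (3.04% of those tested) and 879 lower (4.84%), together 7.88%, by edgeR's quasi-likelihood test with a Benjamini-Hochberg adjusted p of at most 0.05. The median fold difference was 1.18 among genes called higher and 1.24 among those called lower, and only 43 and 113 of them reached 1.5-fold. In 749 genes (4.12%) the 6 SA libraries did not overlap the 6 ANH libraries. Counts of called list members below are read beside the 3.04% and 4.84%, and counts without overlap beside the 4.12%. Lists with lower genes include those of myelin (18 of 26), chaperones (9 of 32, and 3 with the GC and length offset described below), cholesterol synthesis (6 of 24, and 2 with the offset) and GABA receptors (5 of 15). Higher genes include Ptgds, Penk, immediate early genes (5 of 27) and chromatin regulators (8 of 54, and 4 with the offset). Oxidative phosphorylation genes had 18 of 76 higher and 4 lower, and 14 higher and 9 lower with the offset.

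**Figure D1:**
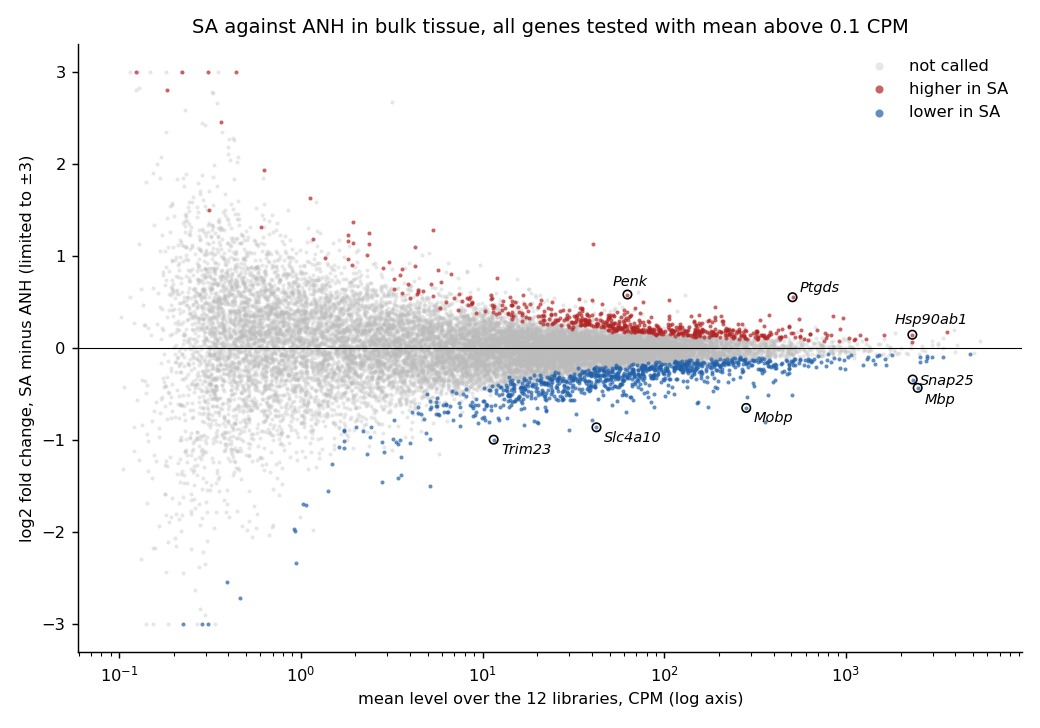
Log2 fold change of SA minus ANH (vertical, limited to ±3) against the mean level over the 12 libraries in CPM (horizontal, log axis) for each gene tested with a mean above 0.1 CPM. Red points are the genes called higher in SA, blue points those called lower, gray points the rest, and 8 genes are ringed. Most called genes with a high mean lie within 1 log2 unit of 0, with Mobp at -0.65 and Ptgds at 0.55.

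The direction of the calls varied with base composition. Genes called lower had a median GC content of 44.5% in their longest transcript, genes called higher 54.7% and the uncalled 49.9%. Below 40% GC, 12.6% of genes were called lower and 0.381% higher, and at 60% GC and above 1.09% were called lower and 10.9% higher. The slope of level on GC content ran from -0.045 to 0.087 log2 units per 10 points of GC in the 6 SA libraries, with SA Input replicate 6 as the only negative one, and from -0.126 to -0.007 in the 6 ANH libraries. With an offset for GC and length in each library, 1206 genes were called, 613 higher and 593 lower, so that 50.8% of calls were higher instead of 38.6%, and 761 of the 1431 calls were shared. Without pseudogenes and predicted genes, 48.5% of the calls were higher (747 higher, 793 lower). The value with the GC and length offset is therefore given beside each group of genes for which it ends calls, and the part of base composition in those results was not tested.

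**Figure D2:**
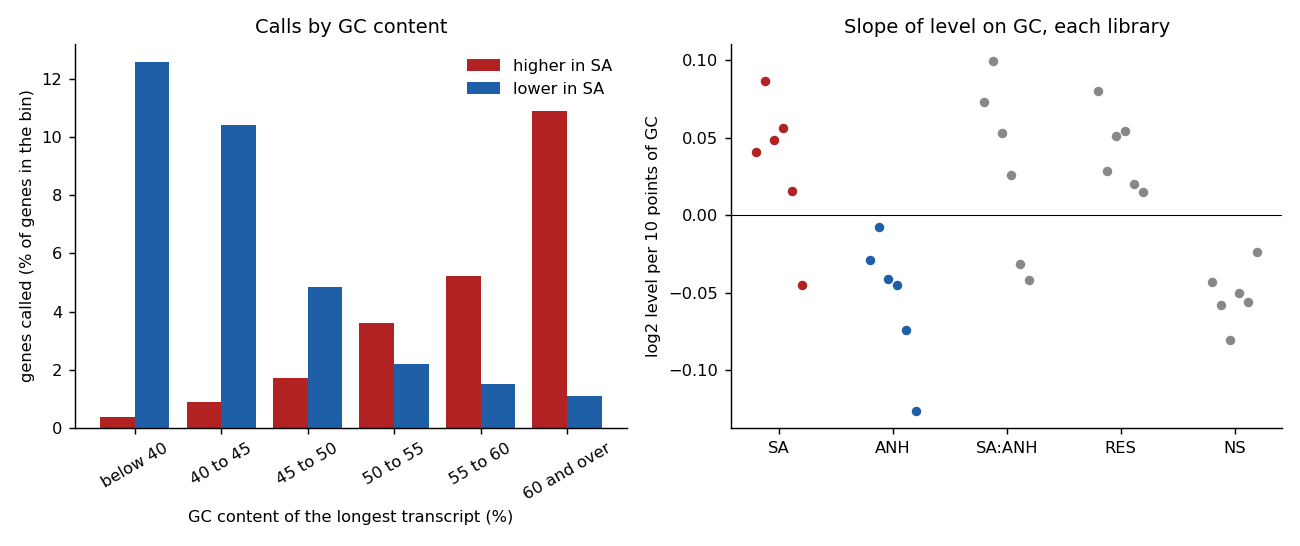
Left, the percentage of genes called higher (red) or lower (blue) in SA by the GC content of the longest transcript. Right, the slope of log2 level on GC content in each Input library, 6 per group. The share of lower calls is 12.6% in the lowest bin and 1.09% in the highest, and all 6 ANH slopes lie below 0.

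Of all lists examined, that of myelin held the most lower genes. Of 26 markers of mature oligodendrocytes and myelin, 18 were lower in SA, 0 were higher and 8 did not pass, with a median log2 difference of -0.40 beside 0.00 over all genes tested. All 18 called members had SA libraries entirely below the ANH libraries. The count was 18 with the GC and length offset and 17 to 18 when any 1 library was left out. Their summed level was 4153 to 4366 CPM in SA and 5714 to 5945 CPM in ANH.

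Mbp encodes myelin basic protein, which zips the inner faces of the myelin membrane together, and it lay between 2074 and 2145 CPM in SA (median 2110) and between 2787 and 2884 CPM in ANH (median 2863). The gap between the groups exceeded the range within either, and the mean was 1.35-fold lower in SA (log2 -0.43 ± 0.02, edgeR adjusted p = 1.95e-18).

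Mobp, a small basic protein of compact myelin, lay between 206 and 239 CPM in SA (median 221) and between 331 and 364 CPM in ANH (median 344) (log2 -0.65 ± 0.05, edgeR adjusted p = 1.15e-12). Trf encodes transferrin, the iron carrier that oligodendrocytes make in the brain, and it lay between 283 and 326 CPM in SA (median 311) and between 409 and 470.4 CPM in ANH (median 440.1) (log2 -0.51 ± 0.03, edgeR adjusted p = 9.13e-13). Car2, a carbonic anhydrase of oligodendrocytes, lay between 260.1 and 279 CPM in SA (median 267) and between 329 and 362 CPM in ANH (median 348) (log2 -0.38 ± 0.03, edgeR adjusted p = 2.07e-11). In each of these 3 genes the highest SA library was below the lowest ANH library. Ugt8a, which makes the galactolipid of myelin, was one of the 12 largest falls by the naming rule. It had 4.92 to 8.83 CPM in SA (median 6.83) against 9.18 to 14 CPM in ANH (median 12.5) (log2 -0.81 ± 0.16, edgeR adjusted p = 0.00107).

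Other genes of the sheath and of its control were lower in SA than in ANH too. These 4 genes, Cnp, Mog, Mag and Myrf, were chosen after their values were seen. Cnp, an enzyme of the cytoplasmic channels of myelin, fell by 1.29-fold (log2 -0.36 ± 0.04, edgeR adjusted p = 6.32e-09), Mog on the outer surface by 1.36-fold (log2 -0.45 ± 0.07, edgeR adjusted p = 2.31e-05), and Mag on the face next to the axon by 1.28-fold (log2 -0.36 ± 0.05, edgeR adjusted p = 2.02e-05). Myrf, the transcription factor that keeps oligodendrocytes mature, had 5.12 to 6.4 CPM in SA (median 6.14) against 8.19 to 9.74 CPM in ANH (median 9.23) (log2 -0.64 ± 0.17, edgeR adjusted p = 0.0116). Its 6 SA libraries also lay below every ANH library.

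Set among all 5 groups, the mean level of Mbp (± SD, n = 6 each) was 2112 ± 26.3 CPM in SA, 2850 ± 37.9 in ANH, 1838 ± 55.7 in SA:ANH, 2460 ± 50 in RES and 1699 ± 38.5 in NS. That of Mobp was 220.0 ± 12 CPM in SA, 345 ± 11.2 in ANH, 213 ± 15.9 in SA:ANH, 282 ± 19 in RES and 194 ± 10.1 in NS. ANH had the highest mean of the 5 groups in 23 of the 26 myelin genes, and NS the lowest in 19, SA:ANH in 5 and SA in 2. For Mbp the order of means was NS, SA:ANH, SA, RES and ANH from low to high, and no neighbours in that order overlapped.

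**Figure D3:**
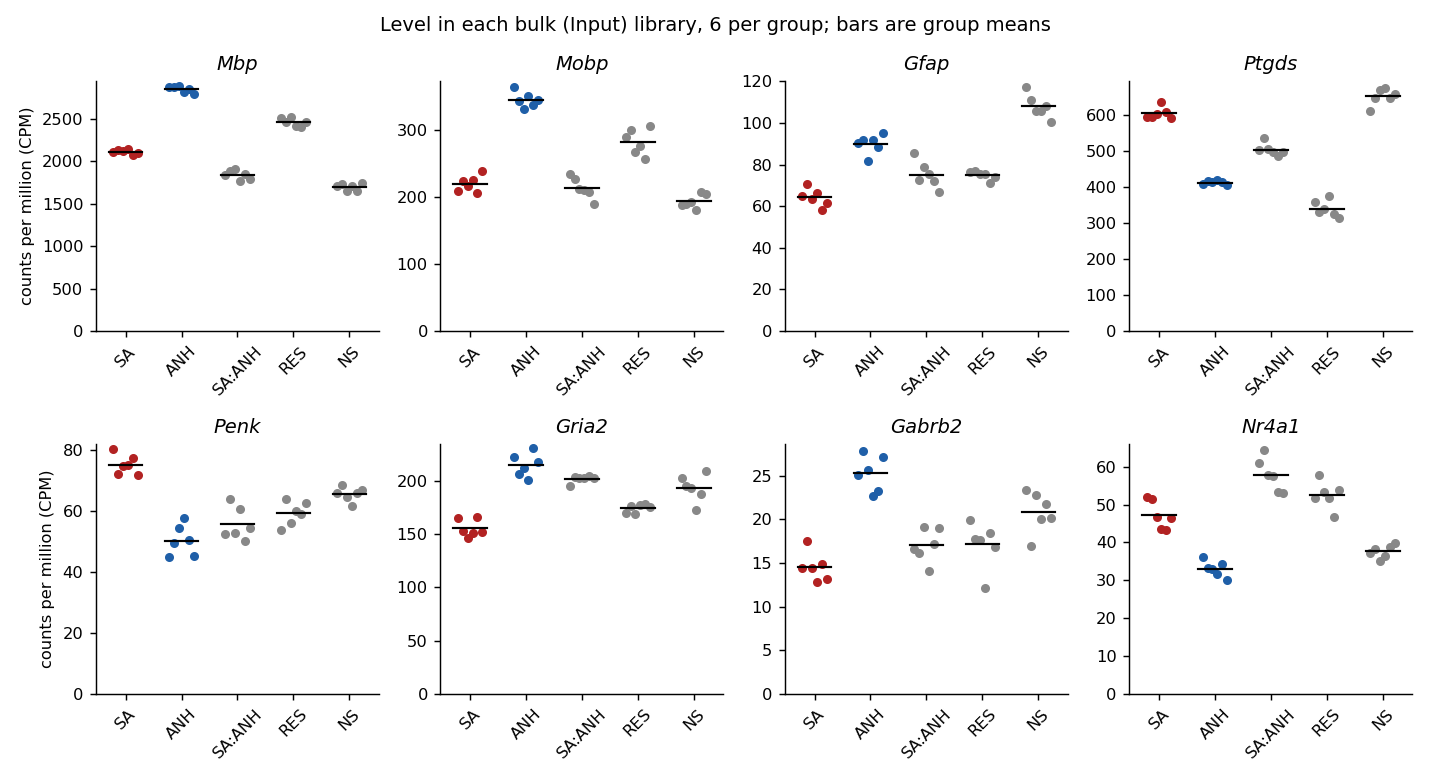
Level in CPM (vertical, from 0) of 8 genes in each Input library, by group (horizontal), with SA in red, ANH in blue and the other 3 groups in gray. Bars are group means over 6 libraries. For Mbp, SA lies between 2074 and 2145 CPM and ANH between 2787 and 2884 CPM.

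Of 18 markers of earlier stages of the lineage, oligodendrocyte precursors and newly formed oligodendrocytes, 2 were lower in SA and 0 higher. The lower share was 11.1%, beside 4.84% of all genes tested, and the median log2 difference was -0.02. DESeq2 called 4 lower. Bcas1, which marks cells starting to myelinate, lay between 57.7 and 82.3 CPM in SA (median 73.9) and between 99.5 and 112 CPM in ANH (median 102) (log2 -0.49 ± 0.06, edgeR adjusted p = 5.98e-07). Olig1, a transcription factor of the whole lineage, fell by 1.16-fold (log2 -0.21 ± 0.05, edgeR adjusted p = 0.00239). Neither gene overlapped between the groups.

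Among other glia, 4 of 20 astrocyte markers were lower (20%) and 1 higher (5%), with a median of -0.02. Over all genes tested, 4.84% were lower and 3.04% higher. Gfap, the intermediate filament of astrocytes, lay between 58.3 and 70.6 CPM in SA (median 64.1) and between 81.7 and 95.1 CPM in ANH (median 91), and was lower in SA in every library (log2 -0.48 ± 0.05, edgeR adjusted p = 3.96e-08). Fgfr3, a growth factor receptor, and Gjb6 and Gja1, the connexins that couple astrocytes, were lower (log2 -0.32 ± 0.07, edgeR adjusted p = 0.00205 for Fgfr3, log2 -0.31 ± 0.07, edgeR adjusted p = 0.00331 for Gjb6, and log2 -0.18 ± 0.04, edgeR adjusted p = 0.00702 for Gja1), each with overlapping libraries. With the GC and length offset Gja1 was at -0.02 (adjusted p = 0.859). The count of higher astrocyte genes was 2 with DESeq2, with the replicate block, and without SA Input replicate 4 or 5, or ANH Input replicate 3 or 6.

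Of 24 microglia and macrophage markers, 3 were lower (12.5%) and 0 higher, with 20 of 24 below 0 and a median of -0.13. Counts for microglia, mural and endothelial cells are read beside the 4.84% of all genes tested that were lower and the 3.04% higher. P2ry12, a purine receptor of resting microglia, lay between 10.8 and 15.1 CPM in SA (median 12.8) and between 16.1 and 21.5 CPM in ANH (median 19.4) (log2 -0.54 ± 0.11, edgeR adjusted p = 0.00127). Csf1r, the receptor for the growth factor that keeps microglia alive, lay between 87.8 and 99.4 CPM in SA (median 93.6) and between 105 and 124 CPM in ANH (median 114) (log2 -0.29 ± 0.05, edgeR adjusted p = 0.000413). Neither overlapped. The list summed to 861 to 912 CPM in SA and 945 to 1e+03 CPM in ANH, and with the GC and length offset 6 members were lower. Mural cells, which wrap small vessels, had 2 of 16 markers lower (12.5%) and 0 higher. The lower count was 1 to 2 when any 1 library was left out, and 1 with the GC and length offset. Acta2, smooth muscle actin, was at 7.79 to 11.1 CPM in SA (median 8.98) against 11.9 to 17.2 CPM in ANH (median 14.2) (log2 -0.61 ± 0.11, edgeR adjusted p = 0.000388), with SA below ANH throughout. Endothelial markers had 1 of 22 higher (4.55%) and 2 lower (9.09%). These counts were 0 to 1 higher and 1 to 2 lower when any 1 library was left out. The GC and length offset left 0 higher and 2 lower.

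**Figure D4:**
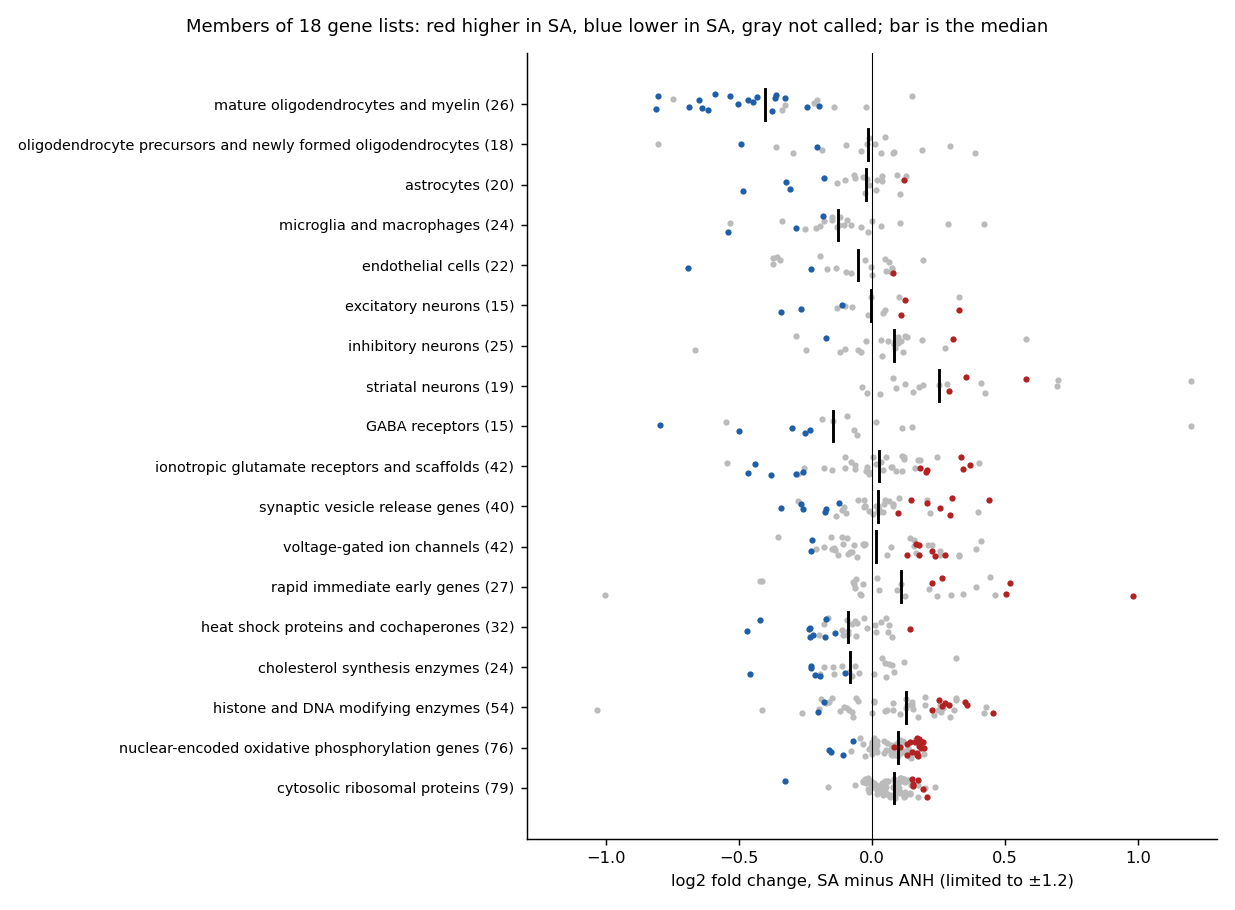
Log2 fold change of SA minus ANH (horizontal, limited to ±1.2) of the members of 18 gene lists (vertical, number tested in brackets). Red points were called higher, blue lower, gray neither, and the black bar is the list's median. The myelin list is the only one of the 18 with a median below -0.2, and the striatal list the only one above 0.2. The list of choroid plexus and ependymal markers, which is not drawn, had a median of -0.46.

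Ptgds had the smallest p of the named genes that were higher in SA. It encodes the lipocalin-type prostaglandin D synthase, an abundant product of meningeal cells, choroid plexus and oligodendrocytes. Its level lay between 591 and 634 CPM in SA (median 598) and between 405 and 418 CPM in ANH (median 414). The 2 ranges were far apart and the mean was 1.47-fold higher in SA (log2 0.55 ± 0.03, edgeR adjusted p = 6.55e-15). Of 22 meningeal and fibroblast markers, which include Ptgds, 2 were higher and 0 lower, and 1 to 2 were higher when any 1 library was left out, and 1 with DESeq2. The list's median was -0.11 with 12 of 22 members below 0. Its summed level was 796 to 855 CPM in SA and 619 to 644 CPM in ANH, and Ptgds itself was the larger part of that sum in both groups. The sum therefore follows Ptgds and does not show a rise of the other members. The 15 choroid plexus and ependymal markers summed to 18.8 to 24.1 CPM in SA and 26.7 to 29.8 CPM in ANH, with 13 of 15 below 0 and a median of -0.46. In 5 of the 15 the mean was below 1 CPM in both groups. Of the 15, 1 was higher and 3 lower, and 1 was lower without any 1 of SA Input replicates 3, 4 or 6 or ANH Input replicates 1 or 3. DESeq2 called 0 of these 15 in either direction. The part of these cells in the level of Ptgds was not tested. Over the 5 groups the mean was 604 ± 16.2 CPM in SA, 412 ± 4.93 in ANH, 503 ± 17 in SA:ANH, 339.9 ± 22.2 in RES and 651 ± 22.8 in NS (± SD, n = 6 each).

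Penk encodes the precursor of the enkephalin opioid peptides. Predicted genes, pseudogenes and clones aside, it had the highest fold rise after mt-Ts1 among called genes with a mean of at least 10 CPM. It lay between 71.6 and 80.2 CPM in SA (median 74.9) and between 44.7 and 57.5 CPM in ANH (median 49.9), without overlap, a 1.5-fold difference (log2 0.58 ± 0.06, edgeR adjusted p = 3.06e-08). Penk is made by some cortical neurons and in large amounts by the striatum, which lies beside the mPFC. Of 19 markers of striatal neurons, which include Penk, 3 were higher in SA (Penk, Ppp1r1b and Rasd2) and 0 lower, with 17 of 19 above 0 and a median of 0.25. RLE scaling, DESeq2 and the GC and length offset each called 5 higher, and the replicate block 6. The list summed to 624 to 648 CPM in SA and 506 to 556 CPM in ANH, and none of its 19 members was at 0 in all 12 libraries. Ppp1r1b (DARPP-32), the dopamine-regulated phosphatase inhibitor, lay between 164 and 180.4 CPM in SA (median 176) and between 126 and 145 CPM in ANH (median 137) (log2 0.35 ± 0.05, edgeR adjusted p = 3.32e-06).

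Rasd2, a small G protein enriched in striatum, lay between 33.9 and 51.4 CPM in SA (median 41.5) and between 32 and 37.9 CPM in ANH (median 34.1) (log2 0.29 ± 0.08, edgeR adjusted p = 0.0113), with overlap, and its adjusted p was 0.0505 without SA Input replicate 4. Adcy5 and Meis2 did not pass, at log2 0.25 ± 0.08 (edgeR adjusted p = 0.052) and log2 0.19 ± 0.06 (edgeR adjusted p = 0.0501), whereas with the offset Adcy5 was at 0.15 (adjusted p = 0.324) and Meis2 at 0.28 (adjusted p = 0.0102). The D2 dopamine receptor Drd2 was at 1.47 to 3.82 CPM in SA (median 2.65) against 0.951 to 3.51 CPM in ANH (median 1.43) and did not pass (log2 0.69 ± 0.34, edgeR adjusted p = 0.232). Without ANH Input replicate 4, which holds the high ANH value of Drd2 and Meis2, 6 of the 19 passed in place of 3, and without SA Input replicate 6 it was 5. How much striatal tissue the libraries hold was not measured on its own, and its part in the rise of Penk was not tested. Of 26 neuropeptide genes Penk alone passed (3.85%, near the 3.04% higher over all genes tested), with 0 lower. Without SA Input replicate 2 or ANH Input replicate 3 it was 3 higher, and without SA Input replicate 6 or ANH Input replicate 4 it was 2. It was 2 with RLE scaling or the block, 4 with DESeq2, and 3 with the GC and length offset, which also called 1 lower.

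Markers of neuronal identity are read beside the 3.04% of all genes tested that were higher and the 4.84% that were lower. Of 15 markers of excitatory neurons 3 were higher and 3 lower (20% each). Of 25 markers of inhibitory neurons 1 was higher and 1 lower (4% each), near the shares over all genes. Without SA Input replicate 2 or ANH Input replicate 3 or 4, 2 inhibitory markers were higher, as with RLE scaling, DESeq2 and the offset, and the block called 2 in each direction. Nrgn, the calmodulin-binding protein neurogranin, lay between 983 and 1178 CPM in SA (median 1084) and between 759 and 973 CPM in ANH (median 847) (log2 0.33 ± 0.06, edgeR adjusted p = 0.000548). Neurod6, a transcription factor of excitatory cortical neurons, lay between 83.2 and 91.4 CPM in SA (median 87.6) and between 99.8 and 123 CPM in ANH (median 110.3) (log2 -0.34 ± 0.05, edgeR adjusted p = 4.31e-05). Among the inhibitory markers Pvalb, the calcium buffer of fast-spiking interneurons, rose by 1.23-fold (log2 0.30 ± 0.05, edgeR adjusted p = 0.000181), and Gad1, which makes GABA, fell by 1.13-fold (log2 -0.17 ± 0.04, edgeR adjusted p = 0.00174). In all 4 genes the groups did not overlap. With the GC and length offset Gad1 was at -0.09 (adjusted p = 0.126).

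Markers of cortical layers are read beside the 3.04% of all genes tested that were higher and the 4.84% that were lower. In 17 upper-layer and intratelencephalic markers 2 were higher, Penk and the exchange factor Rasgrf2 (log2 0.44 ± 0.09, edgeR adjusted p = 0.000815), and 1 lower, the transcription factor Etv1 (log2 -0.31 ± 0.05, edgeR adjusted p = 0.000231). In 14 markers of layer 5 cells that project out of the telencephalon, 2 were higher and 0 lower. These were Pcp4, a calmodulin regulator (log2 0.24 ± 0.04, edgeR adjusted p = 4.19e-05), and the transcription factor Pou3f1 (log2 0.24 ± 0.06, edgeR adjusted p = 0.0129). In 18 layer 6 and subplate markers 0 were higher and 1, the matrix protein gene Ccn2, was lower (log2 -0.30 ± 0.07, edgeR adjusted p = 0.0059), where DESeq2 called 2 higher and 2 lower. With the GC and length offset Etv1, Pcp4 and Pou3f1 no longer passed, with adjusted p = 0.0665, 0.0997 and 0.0656.

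Subunits of the GABA-A receptor, the main inhibitory receptor of the cortex, made up the GABA receptor genes that differed. Of 15 genes in the list 5 were lower in SA (33.3%, beside 4.84% of all genes tested) and 0 higher, with a median of -0.15. Gabrb2, a beta subunit, lay between 12.8 and 17.5 CPM in SA (median 14.4) and between 22.7 and 27.9 CPM in ANH (median 25.4) (log2 -0.80 ± 0.10, edgeR adjusted p = 1.61e-06). Every SA library was lower than any ANH library.

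Gabra5, the alpha subunit of many receptors outside synapses, was lower by 1.23-fold (log2 -0.30 ± 0.07, edgeR adjusted p = 0.00215). Members of the list had a median GC content of 42.9%. With the GC and length offset the list's median was -0.03 and 4 members were lower. Gabrb2 was then at -0.66 (adjusted p = 2.96e-05) and Gabra5 at -0.23 (adjusted p = 0.0214). The organiser of inhibitory synapses Nlgn2 went the other way, with 37.5 to 41.8 CPM in SA (median 40.8) against 24.1 to 33.7 CPM in ANH (median 26.7) and no overlap (log2 0.53 ± 0.09, edgeR adjusted p = 7.6e-05).

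Genes of the excitatory postsynapse were called in both directions. Of 42 ionotropic glutamate receptor and scaffold genes, 6 were higher (14.3%) and 5 lower (11.9%), beside 3.04% and 4.84% of all genes tested. Gria2, the AMPA receptor subunit that blocks calcium entry, lay between 146 and 166 CPM in SA (median 153) and between 201 and 231 CPM in ANH (median 215) (log2 -0.47 ± 0.04, edgeR adjusted p = 1.35e-10). Gria3, another AMPA subunit, lay between 58.1 and 67.6 CPM in SA (median 63.2) and between 73.3 and 96.5 CPM in ANH (median 85.7) (log2 -0.44 ± 0.06, edgeR adjusted p = 2.36e-06). Neither overlapped, and both passed with the GC and length offset, at -0.37 (adjusted p = 1.19e-05) and -0.28 (adjusted p = 0.00281).

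Among the scaffolds Dlgap1 was lower (log2 -0.26 ± 0.04, edgeR adjusted p = 3.78e-05), whereas Dlgap3, its relative, had 58 to 72.8 CPM in SA (median 69.4) against 47 to 57.8 CPM in ANH (median 52.8) and was higher (log2 0.37 ± 0.07, edgeR adjusted p = 0.000274). Shank1, the platform below both, was higher by 1.27-fold (log2 0.34 ± 0.06, edgeR adjusted p = 0.000159), and at 0.18 (adjusted p = 0.0637) with the GC and length offset. Ppp1r9b (spinophilin), which ties protein phosphatase 1 to actin in dendritic spines, lay between 121 and 132 CPM in SA (median 125) and between 76.3 and 93.5 CPM in ANH (median 88.5). It was 1.44-fold higher without overlap (log2 0.52 ± 0.05, edgeR adjusted p = 3.67e-09). The offset left 3 of the 42 genes higher and 5 lower.

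Of 40 vesicle release genes of the presynapse 7 were higher (17.5%) and 6 lower (15%), beside 3.04% and 4.84% of all genes tested. Snap25, a core protein of vesicle fusion, lay between 1977 and 2183 CPM in SA (median 2039) and between 2534 and 2743 CPM in ANH (median 2568) (log2 -0.34 ± 0.03, edgeR adjusted p = 1.25e-11). Napb, which helps to take the fusion complex apart, fell by 1.13-fold (log2 -0.18 ± 0.03, edgeR adjusted p = 1.61e-05), and the vesicle protein Sv2b by 1.2-fold (log2 -0.27 ± 0.04, edgeR adjusted p = 0.000104). Cplx2 (complexin 2), which clamps the same complex, lay between 211 and 232 CPM in SA (median 216) and between 153 and 176 CPM in ANH (median 160.2) and was higher (log2 0.44 ± 0.05, edgeR adjusted p = 3.2e-08). Vamp2, the vesicle partner of Snap25, was 1.11-fold higher (log2 0.15 ± 0.02, edgeR adjusted p = 1.66e-05), and Bsn (bassoon), a scaffold of the active zone, 1.23-fold higher (log2 0.30 ± 0.04, edgeR adjusted p = 1.54e-05). All 6 genes were free of overlap between the groups. After the GC and length offset Napb and Bsn no longer passed, at -0.06 (adjusted p = 0.14) and 0.10 (adjusted p = 0.166), and Snap25 was at -0.16 (adjusted p = 5.14e-06). It left 5 of the 40 genes higher and 3 lower.

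Of 42 voltage-gated ion channel genes, 7 were higher (16.7%, beside 3.04% of all genes tested) and 2 lower (4.76%). The share of lower members was near the 4.84% over all genes. Kcnc1, the fast potassium channel Kv3.1, rose by 1.17-fold (log2 0.22 ± 0.05, edgeR adjusted p = 0.00324) and Scn2b, a sodium channel beta subunit, by 1.12-fold (log2 0.16 ± 0.04, edgeR adjusted p = 0.00812). The count of lower members was 1 to 3 when any 1 library was left out, 1 with RLE scaling or the GC and length offset, and 4 with the replicate block. Kcnc1 was at 0.13 (adjusted p = 0.113) with the GC and length offset. The count of 7 was 4 without SA Input replicate 2, 3 without ANH Input replicate 5, 3 with the GC and length offset and 14 with DESeq2. Slc4a10, a bicarbonate transporter that sets the acidity of neurons, was among the largest falls by the naming rule. It was at 26.8 to 34.2 CPM in SA (median 30.2) against 49.2 to 61.3 CPM in ANH (median 54.7) without overlap (log2 -0.86 ± 0.09, edgeR adjusted p = 1.48e-08).

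Of 27 rapid immediate early genes, 5 were higher in SA (18.5%) and 0 lower, with 17 above 0 and a median of 0.11. Over all genes tested 3.04% were higher. Promoter bases are shown for the 3 of the 5 whose libraries did not overlap, Nr4a1, Junb and Egr4. CREB sites are a known feature of the family, and the part of CREB in these differences was not tested. Each line gives the 250 bases before the annotated start, 5′ to 3′ on the gene's strand, from RefSeq on GRCm38.p6, and capitals mark the CREB half-site TGACG on either strand (CGTCA on the other). The windows are chr15:101266596-101266845 on the plus strand, and chr8:84978749-84978998 and chr6:85513590-85513839 on the minus strand.
Nr4a1: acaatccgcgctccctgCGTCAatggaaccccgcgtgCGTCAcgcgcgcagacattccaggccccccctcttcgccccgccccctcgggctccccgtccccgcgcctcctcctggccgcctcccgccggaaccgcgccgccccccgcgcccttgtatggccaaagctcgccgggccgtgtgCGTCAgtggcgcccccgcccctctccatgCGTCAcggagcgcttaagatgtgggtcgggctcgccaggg
Junb: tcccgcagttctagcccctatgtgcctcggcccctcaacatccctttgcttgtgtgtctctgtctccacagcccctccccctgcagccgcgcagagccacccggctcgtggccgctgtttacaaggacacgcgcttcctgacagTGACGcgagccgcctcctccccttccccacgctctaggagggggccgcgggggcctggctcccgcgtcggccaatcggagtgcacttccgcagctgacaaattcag
Egr4: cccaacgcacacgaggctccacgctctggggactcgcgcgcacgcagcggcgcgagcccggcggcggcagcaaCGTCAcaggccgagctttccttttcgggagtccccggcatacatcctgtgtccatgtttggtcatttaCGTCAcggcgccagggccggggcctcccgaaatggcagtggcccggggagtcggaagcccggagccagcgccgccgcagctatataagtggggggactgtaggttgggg

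Nr4a1 held 4 such half-sites, Egr4 held 2 and Junb 1. Over all 32851 RefSeq windows of this length 17.8% held at least 1, and per gene 19.8% of 27025. Of the 27 immediate early genes tested 22 had a window, and 15 of these (68.2%) held the half-site. The match is of letters only. The windows shown had a GC content of 74.4% (Nr4a1), 66.4% (Junb) and 68% (Egr4). The half-site itself contains a CG pair, and the shares were not matched for base composition, so enrichment was not tested. Sik1 had no window and was not searched, and Per1, the remaining called gene, also held the half-site in a window.

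Nr4a1, an orphan nuclear receptor, lay between 43.3 and 52.1 CPM in SA (median 46.5) and between 30 and 36.1 CPM in ANH (median 33) (log2 0.52 ± 0.06, edgeR adjusted p = 4.53e-07). Junb, a partner of Fos in the AP-1 factor, lay between 115 and 133 CPM in SA (median 119) and between 94.5 and 106 CPM in ANH (median 101) (log2 0.26 ± 0.05, edgeR adjusted p = 0.000238). Egr4, a zinc finger factor of the Egr family, lay between 47.5 and 52 CPM in SA (median 51) and between 39.9 and 46.3 CPM in ANH (median 42.9) (log2 0.23 ± 0.06, edgeR adjusted p = 0.0147). All 6 SA libraries were above the 6 ANH libraries in each of the 3 genes. With the GC and length offset Egr4 was at 0.10 (adjusted p = 0.358).

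Per1, which is both an immediate early and a clock gene, was at 14.5 to 20.9 CPM in SA (median 17.6) against 10.7 to 16.9 CPM in ANH (median 11.5) (log2 0.51 ± 0.11, edgeR adjusted p = 0.00184). Sik1, a kinase that answers cAMP, was low, at 0.627 to 3.05 CPM in SA (median 1.78) against 0.698 to 1.23 CPM in ANH (median 0.894) (log2 0.98 ± 0.29, edgeR adjusted p = 0.0317), and its call was lost without SA Input replicate 3 (adjusted p = 0.123) or ANH Input replicate 1 (0.072), 2 (0.0665) or 3 (0.0577). Fos, the best known member, did not pass, with 25.4 to 31.2 CPM in SA (median 27.8) against 21 to 28.2 CPM in ANH (median 23.2) (log2 0.25 ± 0.11, edgeR adjusted p = 0.157). Bdnf, a growth factor gene that activity switches on later, did not pass either, with 14.1 to 21.5 CPM in SA (median 19.2) against 20.7 to 22.7 CPM in ANH (median 21.6) (log2 -0.24 ± 0.09, edgeR adjusted p = 0.118). The means of Nr4a1 over the 5 groups were 47.3 ± 3.75 CPM in SA, 33 ± 2.1 in ANH, 57.9 ± 4.35 in SA:ANH, 52.5 ± 3.63 in RES and 37.6 ± 1.67 in NS (± SD, n = 6 each), with ANH lowest and SA:ANH highest.

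Of 21 clock genes 3 were higher and 1 lower, where 3.04% of all genes tested were higher and 4.84% lower. Nr1d2 (REV-ERB beta), a repressor of the clock's positive arm, was at 10 to 19.3 CPM in SA (median 14.4) against 21.5 to 28.5 CPM in ANH (median 26.2) and fell (log2 -0.81 ± 0.14, edgeR adjusted p = 0.000153), while its close relative Nr1d1 (REV-ERB alpha) was at 114 to 124 CPM in SA (median 121) against 97.7 to 112 CPM in ANH (median 105) and rose (log2 0.19 ± 0.04, edgeR adjusted p = 0.00415). Neither overlapped, and both passed with the GC and length offset. Dbp, a clock output gene, rose by 1.12-fold (log2 0.17 ± 0.05, edgeR adjusted p = 0.0223), was at adjusted p = 0.0627 without SA Input replicate 3, and at 0.09 (adjusted p = 0.301) with the GC and length offset. Of 29 glucocorticoid-responsive genes 2 were higher and 2 lower, and 1 was higher without SA Input replicate 1 or 2 or ANH Input replicate 3 or 6. Sgk1, a kinase that corticosterone induces, was lower (log2 -0.33 ± 0.07, edgeR adjusted p = 0.00119), with overlap. Fkbp5, the cochaperone of the glucocorticoid receptor, was at 15.8 to 20.3 CPM in SA (median 17.3) against 18.5 to 21 CPM in ANH (median 19.9) and did not pass (log2 -0.15 ± 0.09, edgeR adjusted p = 0.356).

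Of 32 heat shock protein and cochaperone genes 9 were lower in SA (28.1%) and 1 was higher (3.1%), beside 4.84% and 3.04% of all genes tested. Hsp90b1 and Hspa5, the chaperones of the endoplasmic reticulum, were lower by 1.18-fold (log2 -0.24 ± 0.04, edgeR adjusted p = 8.98e-05) and 1.17-fold (log2 -0.22 ± 0.05, edgeR adjusted p = 0.00154). Hsph1, a cytosolic cochaperone, was lower by 1.17-fold (log2 -0.23 ± 0.04, edgeR adjusted p = 0.000543) and Dnajb4 by 1.38-fold (log2 -0.47 ± 0.10, edgeR adjusted p = 0.00159). Hsp90ab1, the constitutive cytosolic HSP90, lay between 2349 and 2494 CPM in SA (median 2440) and between 2122 and 2281 CPM in ANH (median 2191) and was higher without overlap (log2 0.14 ± 0.02, edgeR adjusted p = 0.000119).

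The list's median GC content was 47.0%. Once GC and length were offset, 3 of its members were lower and 1 higher, and Hsp90b1 and Hspa5 were at -0.07 (adjusted p = 0.385) and -0.11 (adjusted p = 0.12). Of 27 genes of endoplasmic reticulum stress 4 were lower (14.8%, beside 4.84% of all genes tested) and 0 higher. With the offset 1 was lower. Xbp1, the factor that the stress sensor IRE1 splices, was at 176 to 206 CPM in SA (median 189) against 205 to 226 CPM in ANH (median 217) (log2 -0.21 ± 0.04, edgeR adjusted p = 0.00106) and kept its call with the offset, at -0.21 (adjusted p = 0.000667).

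Enzymes of cholesterol synthesis, which oligodendrocytes and astrocytes run to build membrane, had 6 of 24 lower (25%) and 0 higher. Over all genes tested 4.84% were lower and 3.04% higher. Hmgcs1, at the start of the pathway, fell by 1.16-fold (log2 -0.21 ± 0.05, edgeR adjusted p = 0.00213), Idi1 by 1.37-fold (log2 -0.46 ± 0.11, edgeR adjusted p = 0.00734) and Msmo1 by 1.17-fold (log2 -0.23 ± 0.05, edgeR adjusted p = 0.00263). The count was 3 without SA Input replicate 3, SA Input replicate 5 or ANH Input replicate 5, and 2 with the GC and length offset, where none of the 3 named genes passed, with adjusted p = 0.459, 0.116 and 0.135.

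Of 54 histone and DNA modifying enzymes and remodelers 8 were higher (14.8%) and 2 lower (3.7%), with a median of 0.13. Over all genes tested 3.04% were higher and 4.84% lower. Chd3, a remodeler of the NuRD complex, lay between 224 and 236 CPM in SA (median 231) and between 173 and 194 CPM in ANH (median 178) without overlap (log2 0.35 ± 0.04, edgeR adjusted p = 7.12e-08). Its relative Chd4 was higher by 1.22-fold (log2 0.29 ± 0.07, edgeR adjusted p = 0.00647) and Arid1a, a subunit of the BAF remodeler, by 1.28-fold (log2 0.36 ± 0.06, edgeR adjusted p = 6.26e-05). These 3 passed with the GC and length offset too, whereas the count of higher members fell to 4 and the median to 0.06. DESeq2 called 16 higher. The count of lower members was 0 to 2 when any 1 library was left out, and 1 with RLE scaling or the offset.

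Of 76 nuclear-encoded genes of oxidative phosphorylation 18 were higher (23.7%) and 4 lower (5.26%), with 66 above 0 and a median of 0.10. Over all genes tested 3.04% were higher and 4.84% lower. Ndufb8, of complex I, lay between 436 and 478 CPM in SA (median 449) and between 373 and 418 CPM in ANH (median 392) (log2 0.20 ± 0.03, edgeR adjusted p = 0.000124). Atp5b, the catalytic subunit of ATP synthase, went the other way, at 2587 to 2764 CPM in SA (median 2660) against 2778 to 2946 CPM in ANH (median 2892) (log2 -0.11 ± 0.02, edgeR adjusted p = 0.000209). Neither overlapped. Ndufb9, also of complex I, was higher (log2 0.17 ± 0.03, edgeR adjusted p = 0.000304) and at -0.00 (adjusted p = 0.979) with the GC and length offset, which left 14 higher and 9 lower. The 4 lower were 2 with RLE scaling and without any 1 of SA Input replicates 1, 5 or 6 or ANH Input replicates 1, 2 or 5.

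Of 79 cytosolic ribosomal protein genes 6 were higher (7.59%) and 1 lower (1.27%), with a median of 0.08. Over all genes tested 3.04% were higher and 4.84% lower. With the GC and length offset the list's median was 0.01, with 7 higher and 1 lower. The count of 6 was 3 without SA Input replicate 6 and 2 without ANH Input replicate 2, and 10 with DESeq2. The only lower member was Rpl10a, the gene whose product carries the tag in these mice, with 71.6 to 80.7 CPM in SA (median 74.1) against 85.8 to 108 CPM in ANH (median 92.7) and no overlap (log2 -0.33 ± 0.06, edgeR adjusted p = 0.000892). Reads of the transgene and of Rpl10a pseudogenes can be counted as Rpl10a, so this value is uncertain.

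Long noncoding RNAs of the nucleus had 4 of 14 higher (28.6%) and 1 lower (7.14%), beside 3.04% and 4.84% of all genes tested. Malat1, the abundant RNA of nuclear speckles, lay between 208 and 293 CPM in SA (median 220.2) and between 275 and 428 CPM in ANH (median 334) and was lower, with overlap (log2 -0.53 ± 0.09, edgeR adjusted p = 7.68e-05). Gm37376 (chromosome 19, 5851969 to 5852421, plus strand) lies inside Malat1 (5845718 to 5852700, minus strand) in the deposited positions. The submitters' processing notes name mm10, which these positions do not match. Gm37376 was lower as well (log2 -0.64 ± 0.07, edgeR adjusted p = 8.24e-08), and reads of the 2 genes cannot be told apart without a strand setting. Gas5, the host of several small nucleolar RNAs, rose by 1.18-fold (log2 0.24 ± 0.06, edgeR adjusted p = 0.0098). Meg3, an imprinted RNA, and Miat were higher (log2 0.14 ± 0.04, edgeR adjusted p = 0.0107, and log2 0.26 ± 0.06, edgeR adjusted p = 0.00644), and no longer passed with the GC and length offset, at 0.03 (adjusted p = 0.656) and 0.17 (adjusted p = 0.113).

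Among genes that the naming rule allows, the largest falls outside these lists were in transcripts of modest level. Trim23, a ubiquitin ligase and G protein, lay between 6.05 and 11.5 CPM in SA (median 6.88) and between 12 and 19.1 CPM in ANH (median 14.9) (log2 -0.99 ± 0.14, edgeR adjusted p = 1.03e-05). Tmem184c lay between 17.9 and 23 CPM in SA (median 21.4) and between 30.9 and 46.3 CPM in ANH (median 38.6) (log2 -0.89 ± 0.09, edgeR adjusted p = 2.72e-08). Zfp281, a zinc finger factor, Ythdf3, a reader of methylated adenosine in RNA, Exoc5, a subunit of the exocyst that docks vesicles, and Cav2, of membrane caveolae, fell by 1.78-fold, 1.74-fold, 1.73-fold and 1.72-fold. All 6 were free of overlap, had a GC content of at most 43.1%, and passed with the GC and length offset, where Trim23 was at -0.80 (adjusted p = 0.000155) and Tmem184c at -0.76 (adjusted p = 1.08e-06). Serinc1, which puts serine into membrane lipids, and Rapgef4 (EPAC2), a cAMP sensor, had some of the smallest p-values among falls, at 399.8 to 438 CPM in SA (median 412) against 556 to 634 CPM in ANH (median 596) (log2 -0.51 ± 0.04, edgeR adjusted p = 1.03e-12) and at 117 to 125 CPM in SA (median 124) against 164 to 196 CPM in ANH (median 189) (log2 -0.58 ± 0.05, edgeR adjusted p = 8.21e-11).

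Predicted genes, pseudogenes and clones aside, the largest called rises at a mean of at least 10 CPM were smaller than the largest falls. Pip4k2b, a lipid kinase, had 11.3 to 14.2 CPM in SA (median 13.8) against 7.02 to 10.4 CPM in ANH (median 9.31) (log2 0.57 ± 0.14, edgeR adjusted p = 0.00506). Fbxl19, a CpG-binding protein, had 8.92 to 11.3 CPM in SA (median 10.1) against 5.99 to 7.32 CPM in ANH (median 6.95) (log2 0.56 ± 0.13, edgeR adjusted p = 0.00338). Cbarp, a regulator of calcium channels, had 77.2 to 96.5 CPM in SA (median 89.3) against 57.7 to 68.9 CPM in ANH (median 62.1) (log2 0.50 ± 0.05, edgeR adjusted p = 5.23e-08). These 3 did not overlap, while Pprc1, a coactivator of mitochondrial genes (log2 0.51 ± 0.12, edgeR adjusted p = 0.00546), and the kinase Hipk4 (log2 0.51 ± 0.12, edgeR adjusted p = 0.00458) did. Fbxl16, an abundant F-box protein of neurons, was higher by only 1.17-fold yet without overlap (log2 0.23 ± 0.03, edgeR adjusted p = 7.86e-08). The mitochondrial serine transfer RNA mt-Ts1 had the highest fitted rise by the naming rule (log2 0.76 ± 0.23, edgeR adjusted p = 0.0318), with overlap, but it was at -0.03 (adjusted p = 0.944) with the GC and length offset. Its call was also lost without any 1 of SA Input replicates 3 (0.0597), 4 (0.0516) or 5 (0.121) or ANH Input replicates 1 (0.0748), 5 (0.0947) or 6 (0.0592), with the adjusted p in brackets.

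The same contrast in the ribosome pulldown was unlike that in bulk tissue for many genes. In a fit of all 60 libraries 4854 of 18937 genes (25.6%) were called between SA and ANH in IP, and for 2656 (14%) the difference in Input differed from that in IP by edgeR's interaction test. Input and IP libraries may come from the same tissue, which the fit does not use. Of the 26 myelin genes 22 were lower in IP, with a median of -2.10. Mbp was at -1.41 ± 0.04 in IP (edgeR adjusted p = 4.85e-38) and Mobp at -1.98 ± 0.09 in IP (edgeR adjusted p = 1.06e-25), against -0.43 and -0.65 in Input, with differences between the fractions of 0.98 ± 0.05, edgeR adjusted p = 1.45e-22 for Mbp and 1.33 ± 0.12, edgeR adjusted p = 1.11e-12 for Mobp. Gfap was at -3.65 ± 0.21 in IP (edgeR adjusted p = 1.04e-21). Mean levels in the pulldown (± SD, n = 6) were 166 ± 7.27 CPM in SA and 441 ± 7.08 in ANH for Mbp. For Mobp they were 14.3 ± 3.21 and 56.6 ± 5.85 CPM, and for Gfap 0.949 ± 0.383 and 12 ± 2.09 CPM.

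Several of the leading rises in bulk tissue had the opposite sign in IP. Penk was at -1.15 ± 0.07 in IP (edgeR adjusted p = 1.51e-19), Ptgds at -0.85 ± 0.12 in IP (edgeR adjusted p = 4.3e-08) and Cplx2 at -0.46 ± 0.05 in IP (edgeR adjusted p = 5.72e-11). Mean levels in IP were 23.3 CPM in SA and 51.9 in ANH for Penk, and 233 and 321 CPM for Cplx2. Ptgds was scarce in IP, at 8.2 CPM in SA and 14.8 in ANH, against 604 and 412 CPM in Input. The difference between the fractions was 1.74 ± 0.10, edgeR adjusted p = 7.81e-21 for Penk. Malat1 showed the reverse, lower in Input and at 1.94 ± 0.12 in IP (edgeR adjusted p = 7.93e-21). Gria2, lower in bulk tissue, was at -0.07 ± 0.04 in IP (edgeR adjusted p = 0.219), and its difference between the fractions was -0.40 ± 0.06, edgeR adjusted p = 3.69e-07. For Snap25, at -0.29 ± 0.03 in IP (edgeR adjusted p = 5.96e-11), and Nr4a1, at 0.33 ± 0.08 in IP (edgeR adjusted p = 0.00092), the fractions were not shown to differ (edgeR adjusted p = 0.586 and 0.313). Sst, the somatostatin precursor, and Ap3b2, of the neuronal AP-3 vesicle coat, were among the 6 genes with the smallest p for a difference between the fractions: neither was called in Input (log2 0.03 ± 0.04, edgeR adjusted p = 0.663 for Sst, and log2 -0.13 ± 0.04, edgeR adjusted p = 0.0686 for Ap3b2), and their log2 differences were -1.97 ± 0.06 in IP (edgeR adjusted p = 4.02e-37) and 1.52 ± 0.04 in IP (edgeR adjusted p = 4.34e-38). The mean of Sst in IP was 14.6 CPM in SA and 57.2 in ANH, against 497 and 486 CPM in Input.

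**Figure D5:**
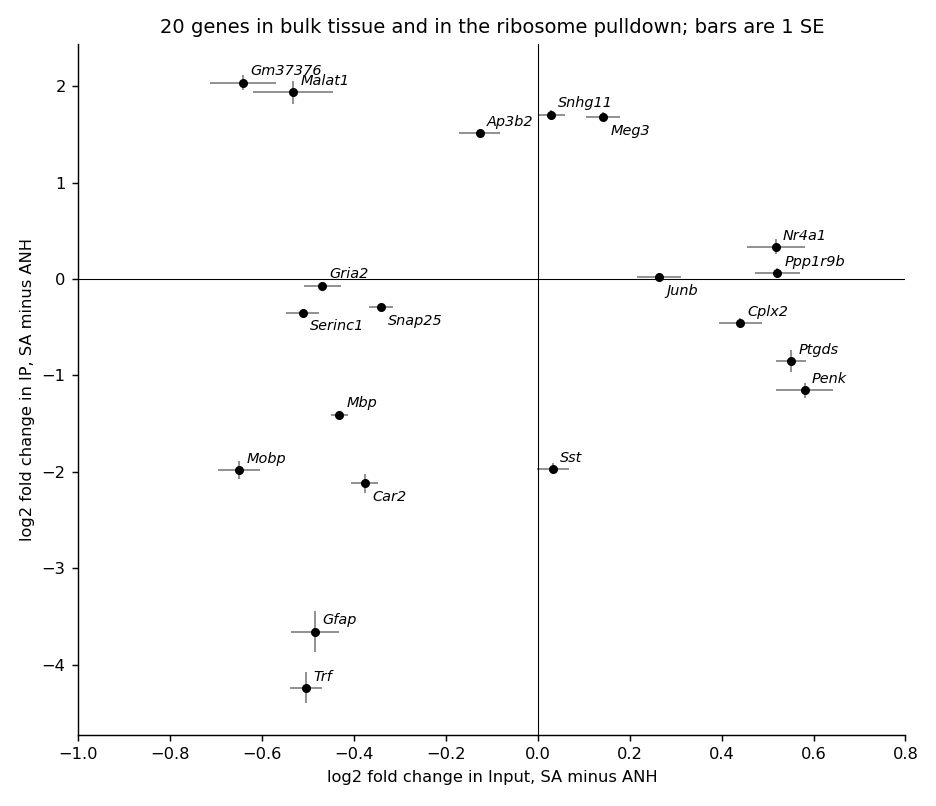
Log2 fold change of SA minus ANH in Input (horizontal) and in IP (vertical) for 20 genes, with bars of 1 SE. Myelin genes lie in the lower left, Penk, Ptgds and Cplx2 in the lower right, and Malat1 and Gm37376 in the upper left. The vertical axis spans a wider range than the horizontal one.

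In 4 lists edgeR called 0 members in either direction. These were 7 red cell genes, 15 genes encoded in mitochondrial DNA, 7 metabotropic glutamate receptors and 33 monoamine and acetylcholine receptors, with 1, 1, 1 and 2 members at an unadjusted p under 0.05. DESeq2 called 0, 1, 1 and 1 of them and limma voom 0, 1, 0 and 1. In the fit with the GC and length offset 7 of the mitochondrial genes were higher, and of the red cell genes 1 was higher and 2 lower. Among the lists with 0 calls in 1 direction named above, 0 to 3 members had an unadjusted p under 0.05 in that direction, DESeq2 called 0 to 2 and limma voom 0 to 1.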

How the data were processed

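Values are the expected counts that the authors deposited for 55414 genes, an estimate of reads per gene; 88.4% of values were whole within 0.000001. Per the submitters' processing notes, the tools were Bowtie2 2.2.3, TopHat2 2.0.13 and Trimmomatic 0.32, with mm10 as build; no source used here names the counter, its strand setting or its handling of shared reads. Per the labels' protocols, libraries were made with SMART-Seq v4 and TruSeq v2 kits. Only 0.756% of 38883 genes matched by symbol to GRCm38 shared its start, so deposited positions are not on that build.

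Counts were rounded and fitted with edgeR 4.0.16 (R 4.3.3) on all 30 Input libraries by group, with TMM scaling, filterByExpr (minimum count 10) and the quasi-likelihood test, and p-values adjusted over all 18170 genes at 0.05. The SE is the log2 fold change divided by the root of its F statistic. CPM are scaled by TMM. IP and interaction values come from a fit of all 60 libraries. GC content and length were those of the longest GENCODE M21 transcript (99.8% of genes). Alternatives were RLE scaling, no filter, the 12 libraries alone, the replicate block, no pseudogenes, limma 3.58.1 voom and DESeq2 1.42.0. The GC and length offset and leaving out each library were added after seeing the data. No column was unmatched, and the lowest chi-square per degree of freedom between libraries of the same group was 7.32, so no such pair was a repeat.

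The gene lists and the genes to name were chosen with earlier results of these data known. Named were, among called genes with a mean of at least 10 CPM in the higher group and without predicted genes, pseudogenes and clones, the 12 largest rises and falls, the 8 smallest p in each direction, up to 5 members of each list by p, 6 from the interaction, and Fos, Bdnf, Fkbp5, Mbp, Malat1 and Rpl10a; not all are described. The script was tested on simulated data.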

Additional observations from a re-analysis of the deposited data

Results flagged for a closer look

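Among 218 sets of 6 libraries, 9 held 1 library whose gap to its nearest neighbour took more of the group's range than Dixon's 95% limit allows. Chance alone gives about 1 set in 20. Junb was at 133 CPM in SA Input replicate 3 against 115 to 122 CPM in the other 5 libraries of that group. Cnp was at 466 CPM in ANH Input replicate 4 against 439 to 444 CPM in the other 5 libraries of that group. Bcas1 was at 112 CPM in ANH Input replicate 4 against 99.5 to 103 CPM in the other 5 libraries of that group. Gjb6 was at 61.1 CPM in SA Input replicate 3 against 49.5 to 53.7 CPM in the other 5 libraries of that group. Meis2 was at 53.9 CPM in ANH Input replicate 4 against 46.2 to 47.0 CPM in the other 5 libraries of that group. Drd2 was at 3.51 CPM in ANH Input replicate 4 against 0.951 to 1.52 CPM in the other 5 libraries of that group. Miat was at 39.7 CPM in SA Input replicate 1 against 47.8 to 50.3 CPM in the other 5 libraries of that group. Trim23 was at 11.5 CPM in SA Input replicate 6 against 6.05 to 8.09 CPM in the other 5 libraries of that group. Gad1 was at 258 CPM in ANH Input replicate 5 against 233 to 241 CPM in the other 5 libraries of that group. ANH Input replicate 4 was the far library in 4 of the 9 sets.

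Of 20 genes compared between the fractions, 17 had a difference of SA minus ANH in Input that was unlike that in IP. The test was edgeR's interaction test, adjusted over 18937 genes, of which 2656 (14%) passed. Trf, Meg3, Ap3b2, Sst, Snhg11 and Gm37376 were taken for their small p in this same test, so their passing was fixed by that choice. The rest of the 20 all had a call in Input, so 17 of 20 cannot be set beside the 14%. The log2 difference in Input exceeded that in IP for Mbp by 0.98, Mobp by 1.33, Trf by 3.74, Car2 by 1.74, Gfap by 3.17, Penk by 1.74, Ptgds by 1.40, Junb by 0.25, Cplx2 by 0.90, Sst by 2.00, Ppp1r9b by 0.46. The Input difference minus that in IP was negative for Gria2 (-0.40), Malat1 (-2.46), Meg3 (-1.54), Ap3b2 (-1.64), Snhg11 (-1.67), Gm37376 (-2.67). No such difference was shown for Nr4a1, Snap25 and Serinc1.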

How the results depend on the processing

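The count of 1431 called genes stayed between 1066 and 1998 over all alternatives run. DESeq2 called 895 genes higher in place of 552. Leaving out 1 library at a time gave 1066 to 1426 called, 422 to 617 higher and 641 to 852 lower. With the GC and length offset 3 of the 105 described genes changed sign: Sst at -0.14 (adjusted p = 0.0458), Ndufb9 at -0.0035 (0.979) and mt-Ts1 at -0.0345 (0.944); the cause was not tested. Of 95 described genes with a call, the offset kept 75, and 91 kept it whichever 1 library was left out. RLE scaling kept all 95, and no filter on low counts, the 12 libraries alone and limma voom 94 each. DESeq2 kept the 93 for which it gave an adjusted p. The count of genes unlike in Input and IP was 2656, and 2686 with RLE scaling.

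Shared replicate numbers were not taken as pairs, since not every pair correlated at over 0.1: the correlation of deviations between SA and ANH libraries of the same number ran from -0.167 to 0.252 over 8160 genes. Only SA Input replicates 1 and 6 had the ANH library of the same number as their best match in ANH. In each of SA, ANH and SA:ANH, Input replicate 2 had the highest GC slope, and Input replicate 6 the lowest GC slope and the highest mitochondrial share. With the replicate block, a term for each replicate number shared by all groups, 1631 genes were called in Input, 661 higher and 970 lower. Of the 95 described calls 94 stayed (Sik1 did not, adjusted p = 0.0568). For Input against IP the block was another one, which paired Input and IP libraries of the same group and number, a link that the labels do not give. With that block 2586 genes were unlike in Input and IP. The effect of depth on scarce genes was not tested; without the filter on low counts 33967 genes were tested and 1165 called.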
